A study of Mus musculus with 9 samples.

Results

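Beta-tubulin is the protein that paclitaxel binds, and the 8 beta-tubulin genes Tubb1, Tubb2a, Tubb2b, Tubb2c, Tubb3, Tubb4, Tubb5 and Tubb6 are described here across hind paw, dorsal root ganglia (DRG) and spinal cord. They were chosen by symbol among the 22609 genes of the count files, and all 8 were present. Tubb4 and Tubb2c are older symbols of the genes now called Tubb4a and Tubb4b. The 9 RNA sequencing libraries came from punch biopsies of the hind paw, from DRG of levels L3 to L5 and from lumbar spinal cord, with 3 libraries each. All donors were male C57 mice of 8 to 12 weeks. Every mouse had been given paclitaxel intraperitoneally (2 injections of 2 mg/kg, 1 day apart) and a lymphotoxin-beta receptor antagonist (15 µg into the hind paw and 15 µg intrathecally), and tissue was taken 6 days after the last paclitaxel. The titles place the antagonist on days 1 and 4, whereas the series text places it between the paclitaxel injections and 1 day later. Mice without antagonist are not analysed here, so the data compare tissues under 1 treatment and say nothing of what paclitaxel or the antagonist changed. The labels do not state whether the 3 libraries of a tissue came from separate mice, and p-values measure the spread between these libraries only.

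Microtubules are hollow polymers of alpha- and beta-tubulin pairs, and in long axons they carry the transport between the cell body and the nerve ending. Paclitaxel binds the beta subunit on the inner face of the microtubule and holds the polymer together. It commonly causes a sensory neuropathy whose first signs lie in hands and feet, the territory of the longest axons. Mammals make several beta-tubulin isotypes from separate genes. Their bodies are nearly alike, and they differ most in the acidic tail at the carboxyl end, where other proteins and tail-modifying enzymes act.

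The isotypes differ in how well 50-base reads can be assigned to them. Reads that aligned to several places were not counted to any gene. Each member's longest coding transcript in GENCODE M21 (GRCm38; the deposited counts were made on mm9) was therefore split into all 50-base windows, and each window was looked for in the transcripts of all other genes on both strands. For Tubb1, Tubb3 and Tubb6 100% of windows occurred in no other gene, for Tubb5 99.9% and for Tubb4 99.8%. For Tubb2b the share was 60.7%, for Tubb2a 50.4% and for Tubb2c 44.5%. Tubb2a and Tubb2b shared 712 windows with each other, and their coding sequences were 96.5% identical. The other pairs of members were 73.8 to 86.2% identical, the highest being Tubb3 with Tubb6. Tubb2c shared 675 windows with the processed pseudogene Tubb4b-ps1. Counts of Tubb2a, Tubb2b and Tubb2c are therefore uncertain as levels, whereas the loss applies to the same windows in every library. In this annotation Tubb3 also overlaps the gene Gm20388 and Tubb2c overlaps Fam166a, and reads of such overlaps may be lost or misassigned.

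**Figure D1:**
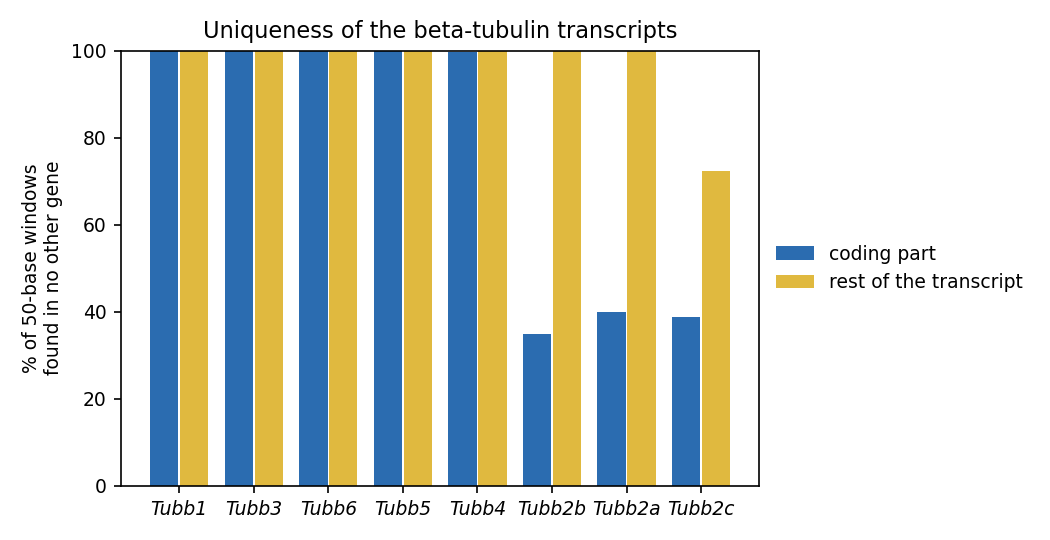
Percent of 50-base windows (vertical axis) found in no other gene's transcripts, for the coding part and the rest of each member's transcript. Only Tubb2b, Tubb2a and Tubb2c, with 34.9%, 39.95% and 38.9% of coding windows unique, fall clearly below 100% in the coding part, and Tubb2c, at 72.3%, also outside it.

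The 60 bases that end the coding sequence are shown for 7 of the 8 members, since the isotypes differ most there. The Tubb6 sequence is not shown here. They encode most of the acidic tail and the stop codon, and run 5′ to 3′ from the GENCODE M21 transcripts. Capitals mark bases that differ from Tubb2a in an alignment of the coding sequences, including any base opposite a gap in Tubb2a.
Tubb2a: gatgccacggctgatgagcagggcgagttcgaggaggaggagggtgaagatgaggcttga
Tubb2b: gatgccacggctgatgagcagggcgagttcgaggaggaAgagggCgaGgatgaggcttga
Tubb2c: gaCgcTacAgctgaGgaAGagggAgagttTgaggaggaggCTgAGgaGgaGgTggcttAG
Tubb4: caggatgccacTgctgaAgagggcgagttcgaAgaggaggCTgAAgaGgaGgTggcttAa
Tubb5: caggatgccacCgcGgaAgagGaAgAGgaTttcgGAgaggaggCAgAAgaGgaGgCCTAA
Tubb3: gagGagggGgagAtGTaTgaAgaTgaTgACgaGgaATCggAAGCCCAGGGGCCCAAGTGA
Tubb1: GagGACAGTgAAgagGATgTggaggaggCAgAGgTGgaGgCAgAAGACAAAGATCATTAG
By this marking Tubb2b differs from Tubb2a at 3 of its 60 bases, Tubb4 at 11 and Tubb2c at 17. Tubb5 differs at 21, Tubb3 at 35 and Tubb1 at 39. Bases that a member lacks are not counted. Where coding lengths differ, the 60 bases need not be the same aligned positions. Some read-length windows from more conserved stretches are the same in several genes. The first example below is bases 432 to 481 of the Tubb2a coding sequence, which Tubb2b and the pseudogene Tubb2a-ps2 also hold. The second is bases 467 to 516 of the Tubb2c coding sequence, which Tubb4b-ps1 and Tubb4b-ps2 also hold.
Tubb2a window: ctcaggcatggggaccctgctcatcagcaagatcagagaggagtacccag
Tubb2c window: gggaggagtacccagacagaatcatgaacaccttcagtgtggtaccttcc

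Reads assigned to genes numbered 15537545 to 23229724 per library, and levels are given as CPM, counts scaled to a TMM-adjusted library of 1e+06 reads. In 1 library 3 reads correspond to 0.134 to 0.185 CPM. The tissues matched their labels in defining markers. Keratinocyte Krt14 averaged 2691 CPM in paw, 1.02 in DRG and 0.918 in spinal cord. The sodium channel gene Scn10a of sensory neurons averaged 0.343 CPM in paw, 1045 in DRG and 1.29 in spinal cord. The astrocyte gene Gfap averaged 1.33 CPM in paw, 3.01 in DRG and 999 in spinal cord. Libraries of a tissue were not alike in all respects. The paw biopsies carried markers of muscle beside those of skin: 9 keratinocyte markers summed to 35444 to 53013 CPM there and 7 skeletal muscle markers to 15455 to 20759 CPM. The muscle markers summed to 34.0 to 916 CPM across DRG libraries and to 14.7 to 60.1 CPM across spinal cord libraries, and their part in the paw levels below was not tested. Spinal cord 3 had the most fibroblast markers of its tissue, with 1160 CPM (486 and 386 in spinal cord 1 and 2). Spinal cord 1 had the most marrow neutrophil markers, with 842 CPM (234 and 274 in spinal cord 2 and 3).

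The 8 genes together took 0.0701 ± 0.00563% of gene reads in paw, 0.569 ± 0.0474% in DRG and 0.311 ± 0.0391% in spinal cord (SD, n = 3). Their summed level was 735, 609.8 and 692 CPM in paw 1 to 3. It was 5464, 6526 and 5924 CPM in DRG 1 to 3, and 3204, 3410 and 2592 CPM in spinal cord 1 to 3. The 3 ranges did not overlap, with DRG highest and paw lowest. Tubb2a and Tubb2c, which share many windows with other genes, averaged 21.8% and 32.0% of the reads of the 8 genes in paw. They averaged 6.43% and 6.57% in DRG, and 6.41% and 6.14% in spinal cord. Reads lost from these 2 genes therefore weigh most on the paw sum.

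Of the 8 genes 7 passed the filter on low counts, and Tubb1 did not. The call of a gene as higher or lower rests on edgeR's quasi-likelihood test, with an adjusted p (Benjamini and Hochberg's method over 16091 tested genes) under 0.05. In paw against DRG 1 of the 7 was called higher and 6 lower, where 39.7% of all tested genes were higher and 40.8% lower. In paw against spinal cord 1 was called higher, 5 lower and 1 was not called, where 39.9% of all tested genes were higher and 41.7% lower. In DRG against spinal cord 6 were called higher and 1 lower, where 29.0% of all tested genes were higher and 30.6% lower. Calls in either direction reached 80.5%, 81.6% and 59.6% of tested genes in these 3 comparisons, so being called does not set a member apart. The median log2 fold change of the 7 was −2.80 in paw against DRG, −1.32 in paw against spinal cord and 1.48 in DRG against spinal cord, beside medians of −0.02, −0.03 and −0.02 over all tested genes. Regardless of direction, the median absolute log2 fold change over all tested genes was 1.14, 1.17 and 0.543 in the same order of comparisons. The comparisons share libraries and are not independent of each other.

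**Figure D2:**
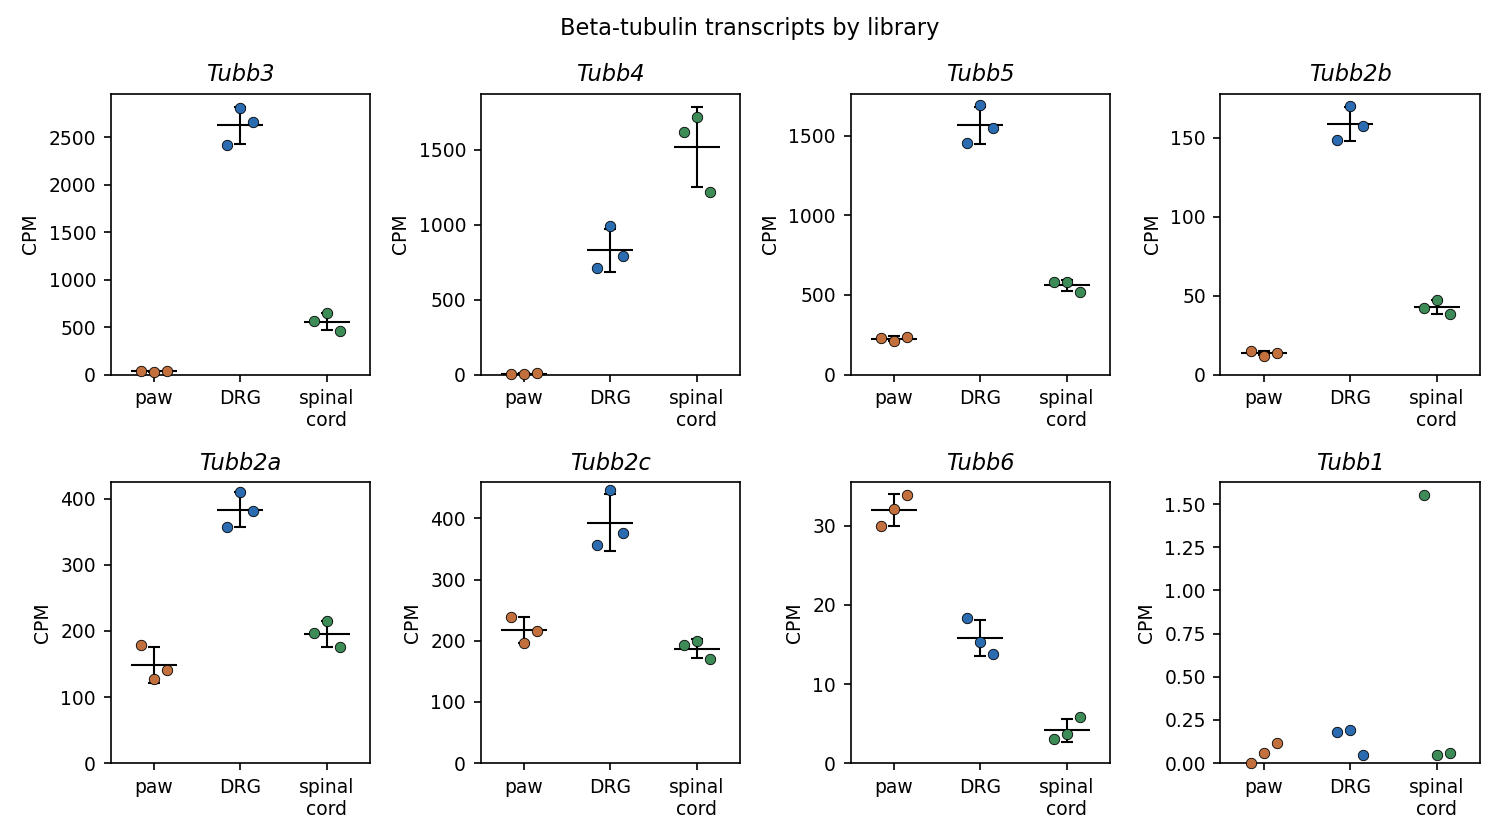
CPM of each member (vertical axes start at 0 and differ between panels) in the 3 libraries of paw, DRG and spinal cord. Points are libraries, and the bar and whiskers are the mean ± SD, left out for Tubb1; DRG is highest for Tubb3, Tubb5, Tubb2b, Tubb2a and Tubb2c, spinal cord for Tubb4 and paw for Tubb6, while Tubb1 stands out in 1 spinal cord library.

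Tubb3 encodes class III beta-tubulin, found mainly in neurons and used widely as a neuronal marker. It stood at 40.5, 29.3 and 40.7 CPM in paw 1 to 3, at 2416, 2804 and 2657 CPM in DRG 1 to 3, and at 565, 645 and 465 CPM in spinal cord 1 to 3. The ranges of the 3 tissues were far apart, and within spinal cord library 3 was the lowest. For paw against DRG, Tubb3 had a log2 fold change of −6.15 ± 0.20 (SE; adjusted p = 1.04e-10). For paw against spinal cord it was −3.92 ± 0.18 (adjusted p = 1.66e-09). DRG lay above spinal cord at a log2 fold change of 2.23 ± 0.17 (adjusted p = 4.47e-07), which is 4.70-fold.

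Tubb4 encodes class IVa beta-tubulin, a brain isotype that neurons and oligodendrocytes make; in humans, mutations of this gene cause a disorder of central myelin. It was at 4.19, 4.63 and 8.42 CPM in paw 1 to 3, at 711, 989 and 789.9 CPM in DRG 1 to 3, and at 1621, 1721 and 1219 CPM in spinal cord 1 to 3. Tubb4 thus reversed the order of Tubb3 between the neural tissues, and the DRG and spinal cord ranges did not overlap. It was lower in DRG than in spinal cord (−0.87 ± 0.23, adjusted p = 0.0069). With DRG 1 and 2 both left out it was −0.94 (adjusted p = 0.0523), a fit with 1 DRG library that is assumed to vary like the other groups. Paw lay below DRG (log2 fold change −7.17 ± 0.31, adjusted p = 2.04e-09) and below spinal cord (log2 fold change −8.04 ± 0.32, adjusted p = 9.28e-10), the widest differences of the 7 tested members.

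Tubb5 encodes class I beta-tubulin, the isotype found in most cell types. It was at 228, 209 and 238 CPM in paw 1 to 3, at 1456, 1690.2 and 1547 CPM in DRG 1 to 3, and at 580.2, 579.8 and 519 CPM in spinal cord 1 to 3. DRG was well above both other tissues, and libraries of a tissue lay close together. Tubb5 was lower in paw than in DRG (−2.80 ± 0.12, adjusted p = 8.27e-10) and than in spinal cord (−1.32 ± 0.11, adjusted p = 4.15e-07). DRG exceeded spinal cord at 1.48 ± 0.11 (adjusted p = 4.92e-07).

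Tubb2a and Tubb2b encode the class II isotypes, which are abundant in the nervous system. Their tail sequences above are the most alike of the set, and both genes stand on chromosome 13. Tubb2a was at 179, 127 and 141 CPM in paw 1 to 3, at 357, 411 and 382 CPM in DRG 1 to 3, and at 197, 215 and 176 CPM in spinal cord 1 to 3. Tubb2b was at 14.7, 12.1 and 13.6 CPM in paw 1 to 3, at 148, 170.2 and 158 CPM in DRG 1 to 3, and at 42.3, 47.3 and 38.3 CPM in spinal cord 1 to 3. Both were highest in DRG, but paw overlapped spinal cord for Tubb2a and not for Tubb2b. For paw against DRG the log2 fold change of Tubb2b was −3.56 ± 0.12 (adjusted p = 1.41e-10) and that of Tubb2a −1.36 ± 0.13 (adjusted p = 1.83e-06). For paw against spinal cord Tubb2b stood at −1.66 ± 0.11 (adjusted p = 6.61e-08). Tubb2a was called there at −0.40 ± 0.13 (adjusted p = 0.0161). It fell short of the threshold when spinal cord 2 was left out (−0.30, adjusted p = 0.0774), when paw 2 was left out (−0.27, adjusted p = 0.104) and when paw 3 was left out (−0.36, adjusted p = 0.0558). For DRG against spinal cord Tubb2b stood at 1.90 ± 0.11 (adjusted p = 5.74e-08) and Tubb2a at 0.97 ± 0.13 (adjusted p = 7.33e-05).

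Tubb2c encodes class IVb beta-tubulin, which most tissues make and which is abundant in cilia. It was at 239, 196 and 217 CPM in paw 1 to 3, at 356, 446 and 377 CPM in DRG 1 to 3, and at 193, 199 and 169.6 CPM in spinal cord 1 to 3. DRG was highest, and paw overlapped spinal cord. Paw was lower than DRG (−0.85 ± 0.12, adjusted p = 3.34e-05), and DRG was higher than spinal cord (1.07 ± 0.12, adjusted p = 1.28e-05). Paw against spinal cord was not called, at 0.21 ± 0.12 (adjusted p = 0.112). It was called with upper quartile scaling (0.29, adjusted p = 0.0365) and without DRG 2 (0.24, adjusted p = 0.044).

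Tubb6 encodes class V beta-tubulin, made at low level in many tissues. It was at 29.9, 32.1 and 33.9 CPM in paw 1 to 3, at 18.4, 15.3 and 13.8 CPM in DRG 1 to 3, and at 3.05, 3.64 and 5.80 CPM in spinal cord 1 to 3. It was the only one of the 7 tested members with its highest level in paw, and no tissue overlapped another. Paw exceeded DRG at a log2 fold change of 1.01 ± 0.18 (adjusted p = 0.000322) and spinal cord at 2.95 ± 0.21 (adjusted p = 8.06e-08). DRG exceeded spinal cord at 1.94 ± 0.20 (adjusted p = 9.02e-06). Within each neural tissue, the library with the most Tubb6 was also the one with the most fibroblast markers and the most Schwann and satellite glia markers. The summed level of the 7 fibroblast markers was 3342, 2264 and 2274 CPM in DRG 1 to 3, and 486, 386 and 1160 CPM in spinal cord 1 to 3. In paw they summed to 4820, 6204 and 5331 CPM. The 9 Schwann and satellite glia markers summed to 1085, 1120.0 and 1280 CPM in paw 1 to 3, to 28738, 21662 and 22229 CPM in DRG 1 to 3, and to 8504, 8573 and 13693 CPM in spinal cord 1 to 3. In paw, library 3 was highest in Tubb6 and in the Schwann markers, and library 2 in the fibroblast markers. The part of either list in the Tubb6 level was not tested.

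**Figure D3:**
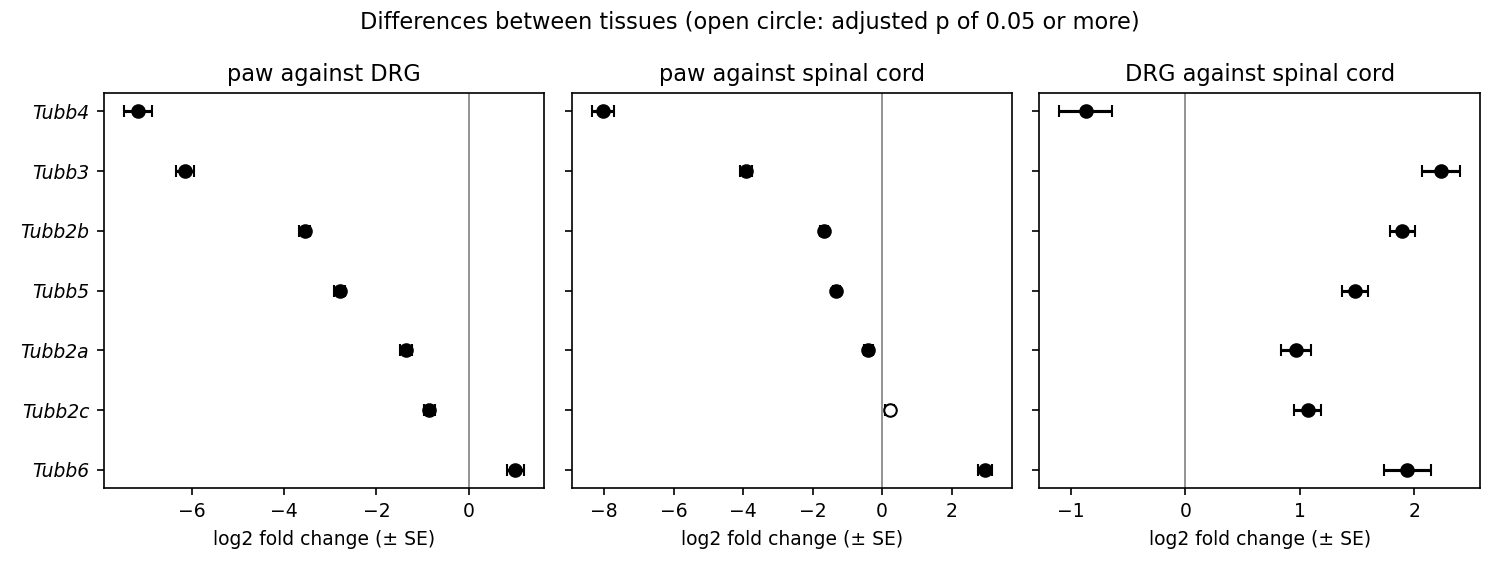
Log2 fold change ± SE of the 7 tested members (horizontal axis, range differs between panels) in paw against DRG, paw against spinal cord and DRG against spinal cord. Filled circles are calls and the open circle, Tubb2c in paw against spinal cord, is not; Tubb6 lies right of 0 in all 3 panels and Tubb4 left of 0 in all 3.

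Tubb1 encodes class VI beta-tubulin, the isotype of platelets and the megakaryocytes that shed them. It had 0, 1 and 2 reads in paw 1 to 3, 4, 4 and 1 reads in DRG 1 to 3, and 31, 1 and 1 reads in spinal cord 1 to 3. Of the 33 reads of spinal cord, 31 came from library 1, so no level of the tissue can be read from them. Summed over a tissue, the reads have exact 95% Poisson intervals of 0.619 to 8.77 in paw, 4.12 to 17.1 in DRG and 22.7 to 46.3 in spinal cord, which cover counting error only. Of 11 platelet and megakaryocyte markers, 10 had a read in paw, 10 in DRG and 11 in spinal cord. Their summed level was 55.6 to 62.6 CPM in paw, 19.8 to 21.7 CPM in DRG, and 29.0, 10.4 and 12.5 CPM in spinal cord 1 to 3. The paw level was mostly Pf4 and Gp1bb, while Gp6, a platelet collagen receptor, had 6 reads in spinal cord 1 and 0 in the other 8 libraries. Ppbp, a platelet chemokine, had 168 reads in spinal cord 1, 6 in spinal cord 2 and 5 in spinal cord 3. The 6 erythroid markers summed to 569 CPM in spinal cord 1 and to 57.9 and 119 CPM in spinal cord 2 and 3, and the 6 markers of dividing cells to 30.6, 4.34 and 6.60 CPM in spinal cord 1 to 3. The part of marrow or blood cells in the Tubb1 reads was not tested.

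To compare members with each other, CPM was divided by the number of unique 50-base windows of the transcript and multiplied by 1000. This makes a rough allowance for transcript length and for reads lost to near-identical copies. The scale treats every shared window as lost, including 72 of Tubb2c shared with the overlapping gene Fam166a, where reads need not be lost. On this scale Tubb2c led in paw with 315 ± 31.3 CPM per 1000 windows, followed by Tubb2a with 189 ± 34.5 and Tubb5 with 86.6 ± 5.72 (SD, n = 3). Tubb3 and Tubb6 came next with 20.3 ± 3.59 and 18.7 ± 1.17, and their ranges overlapped. Tubb2b had 10.4 ± 1.02 and Tubb4 2.64 ± 1.07. In DRG Tubb3 led with 1444 ± 108 CPM per 1000 windows. Tubb5 (602 ± 45.5), Tubb2c (570.2 ± 67.9), Tubb2a (487 ± 34.1) and Tubb4 (382 ± 65.95) followed, and each of these overlapped its neighbour in this order. In spinal cord Tubb4 led with 699 ± 122. Tubb3 (307 ± 49.5), Tubb2c (272 ± 22.7), Tubb2a (249 ± 24.9) and Tubb5 (216 ± 13.5) again overlapped neighbour by neighbour.

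As a share of the 8 genes on the per-window scale, Tubb3 made up 3.14 ± 0.339% in paw, 39.9 ± 0.920% in DRG and 17.2 ± 0.674% in spinal cord. Tubb4 made up 0.415 ± 0.171% in paw, 10.5 ± 0.872% in DRG and 39.2 ± 1.94% in spinal cord. Tubb2c made up 49.1 ± 0.596% in paw, 15.7 ± 0.552% in DRG and 15.4 ± 0.781% in spinal cord. The make-up varied little among libraries of a tissue, and each tissue had a different leading isotype. Divided by transcript length alone, with no allowance for lost reads, the leaders were the same, with Tubb2c at 37.8 ± 0.459% in paw, Tubb3 at 47.9 ± 0.999% in DRG and Tubb4 at 46.8 ± 1.93% in spinal cord. The places behind the leader differed between the scales, with Tubb4 at place 5 by windows and place 3 by length in DRG.

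**Figure D4:**
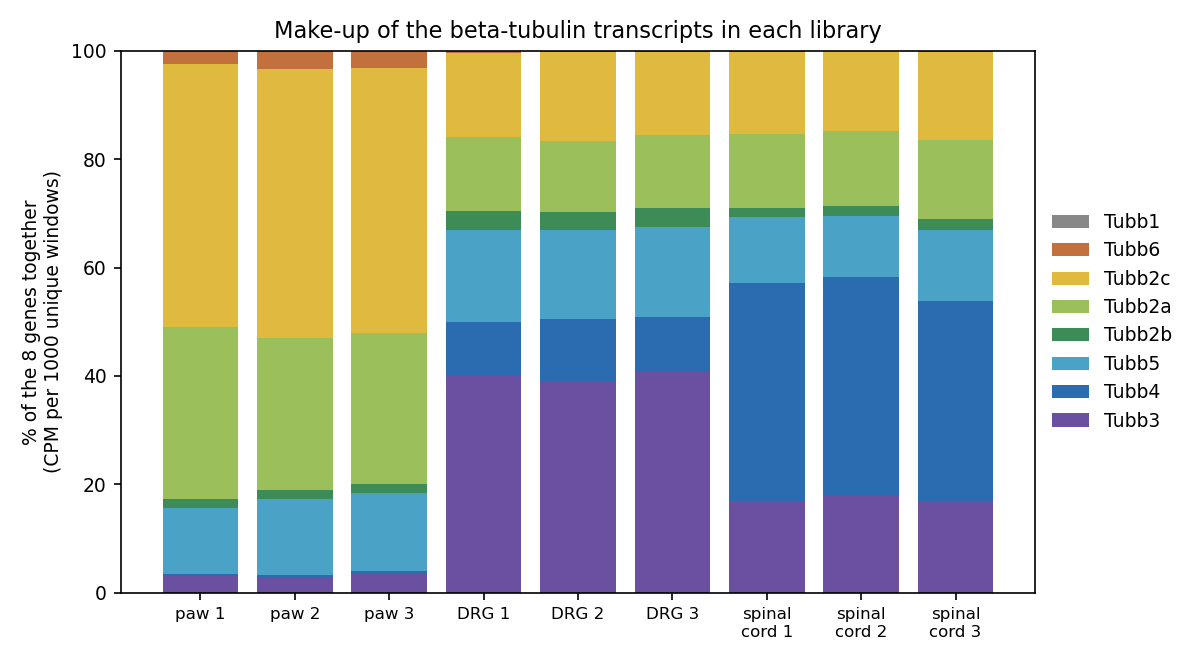
Share of each member in the summed level of the 8 genes (vertical axis, % of CPM per 1000 unique windows) in each of the 9 libraries. Tubb2c is the largest part in all 3 paw libraries, Tubb3 in all 3 DRG libraries and Tubb4 in all 3 spinal cord libraries, while Tubb1 is too small to see.

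Ratios of 2 members within a library do not depend on how libraries are scaled. The read ratio of Tubb3 to Tubb5 was 0.178, 0.140 and 0.171 in paw 1 to 3, 1.66, 1.66 and 1.72 in DRG 1 to 3, and 0.974, 1.11 and 0.896 in spinal cord 1 to 3. The ratio of Tubb2a to Tubb2b was 12.2, 10.5 and 10.3 in paw 1 to 3, 2.41, 2.41 and 2.42 in DRG 1 to 3, and 4.67, 4.54 and 4.58 in spinal cord 1 to 3. These near-identical genes thus kept a ratio within a tissue that was steady to within 0.13 (SD of its log2 in paw, the widest), and differed between tissues without overlap. The ratio of Tubb4 to Tubb2c was 0.0175, 0.0236 and 0.0389 in paw 1 to 3, 2.00, 2.22 and 2.10 in DRG 1 to 3, and 8.40, 8.64 and 7.19 in spinal cord 1 to 3. That of Tubb6 to Tubb5 was 0.131, 0.154 and 0.142 in paw 1 to 3, 0.0126, 0.00908 and 0.00893 in DRG 1 to 3, and 0.00526, 0.00627 and 0.0112 in spinal cord 1 to 3. Of 12 comparisons of a ratio between tissues, 11 showed no overlap. The remaining one was Tubb6 to Tubb5 in DRG against spinal cord, with a log2 difference of 0.49 (two-sided exact permutation test, p = 0.3). Each of the 11 had p = 0.1, the smallest that 3 against 3 allow, and an adjusted p of 0.109 over the 12 exact permutation tests, so none could pass the threshold. How often ratios of other gene pairs separate these tissues was not computed, so the count does not set the members apart.

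In bulk tissue fewer cells of a type cannot be told apart from less RNA per cell, so Tubb3 and Tubb4 are also given beside neuron markers. A list of 8 neuron markers (Rbfox3, Snap25, Elavl4, Stmn2, Gap43, Nefl, Nefm and Uchl1) summed to 32.4, 41.3 and 51.3 CPM in paw 1 to 3. It summed to 13822, 16834 and 15319 CPM in DRG 1 to 3 and to 8912, 10020 and 7701 CPM in spinal cord 1 to 3. All 8 markers had reads in every tissue, though some had few in paw. There Rbfox3 had 9, 7 and 15 reads and Elavl4 4, 3 and 10 reads in paw 1 to 3. The paw ratios below rest on this small sum and do not give a level per neuron. Within DRG and within spinal cord, libraries came in the same order by these markers and by Tubb3. Per 100 CPM of the markers, Tubb3 stood at 125, 70.9 and 79.4 CPM in paw 1 to 3, at 17.5, 16.7 and 17.3 CPM in DRG 1 to 3, and at 6.34, 6.44 and 6.04 CPM in spinal cord 1 to 3. Tubb4 stood at 12.9, 11.2 and 16.4 CPM per 100 in paw 1 to 3, at 5.15, 5.88 and 5.16 in DRG 1 to 3, and at 18.2, 17.2 and 15.8 in spinal cord 1 to 3. On this scale DRG was above spinal cord for Tubb3 and below it for Tubb4, without overlap. The make-up of the sum differed between tissues. By mean CPM its largest markers were Nefl (4777) and Nefm (4451) in DRG. In spinal cord they were Snap25 (3684) and Nefm (2129), and in paw Stmn2 (12.7) and Uchl1 (12.6). The markers did not all move alike. Mean CPM of Snap25 was 1698 in DRG and 3684 in spinal cord, and that of Rbfox3 was 249.6 in DRG and 242 in spinal cord. Set beside each of the 8 markers alone, a comparison added after seeing the data, Tubb3 was higher in DRG for 8 of 8, without overlap. Tubb4 was lower in DRG for 7 of 8 and higher for Snap25. Per 100 CPM of Snap25, Tubb4 stood at 46.6, 52.2 and 47.2 CPM in DRG 1 to 3, against 43.7, 41.4 and 38.3 CPM in spinal cord 1 to 3. Oligodendrocyte markers, 8 in number and each with reads in every tissue, had summed CPM of 52.6 to 66.5 in paw, 758 to 1001 in DRG and 7390 to 8098 in spinal cord, the order of Tubb4. Within DRG, though, library 2 had the most Tubb4 and the fewest of these markers. The part of neurons and of oligodendrocytes in these levels was not tested.

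**Figure D5:**
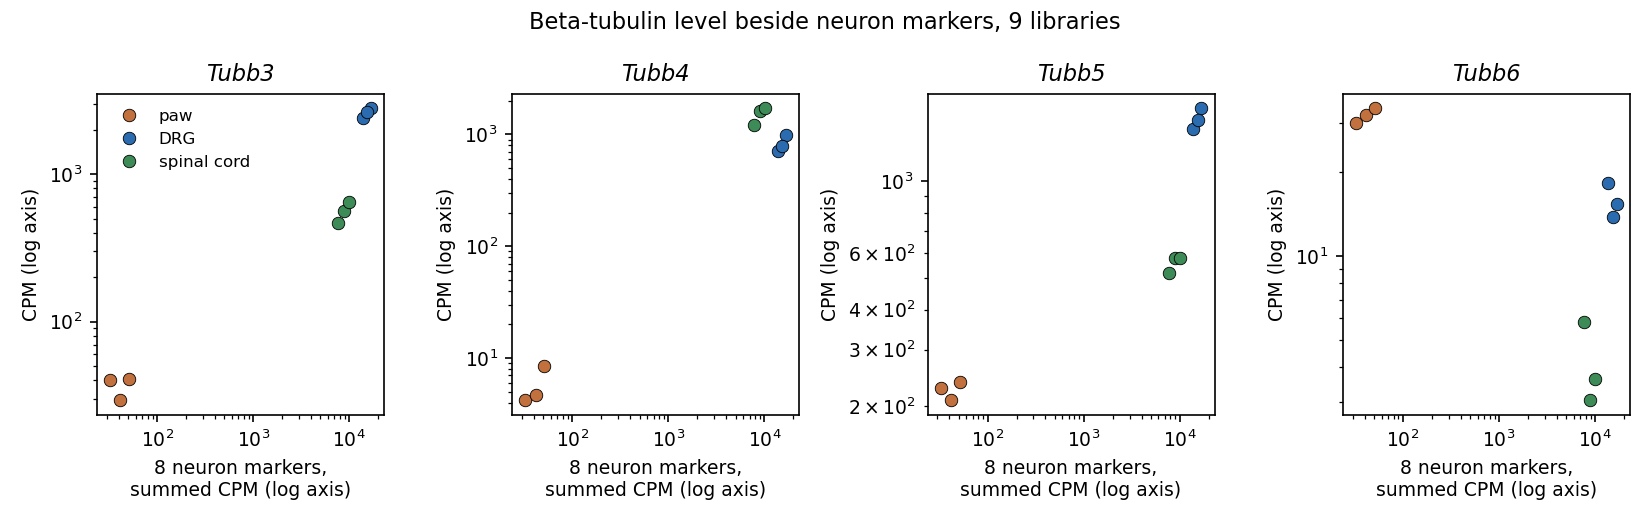
CPM of Tubb3, Tubb4, Tubb5 and Tubb6 (vertical, log axis) against the summed CPM of 8 neuron markers (horizontal, log axis) in the 9 libraries, coloured by tissue. Paw libraries lie near 32 to 51 CPM of the markers and neural libraries at 7701 CPM or above, with DRG above spinal cord in the markers, in Tubb3, Tubb5 and Tubb6, and below it in Tubb4.

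For each tested member, the 3 genes of most like pattern were sought among 11229 other genes with a mean of at least 10 CPM, by the root-mean-square difference of log2 CPM, centred per gene, over the 9 libraries. For Tubb4 the nearest was Syp, the synaptic vesicle protein synaptophysin, at 0.07, with mean levels of 4.62 CPM in paw, 674 in DRG and 1256 in spinal cord. It was followed by Dlgap3, a postsynaptic scaffold gene, at 0.17 and the neural adhesion gene Cntn4 at 0.20. For Tubb3 they were Fkbp1b at 0.20, the microtubule-associated protein gene Mtap1b at 0.24 and the receptor tyrosine kinase gene Ret at 0.24. For Tubb5 they were Anxa6, Flot2 and Flot1 (0.11 to 0.13), for Tubb2b Osbpl10, Rgs10 and Kcnmb4 (0.11 to 0.17), and for Tubb2a Arhgdia, Gclm and the dynactin gene Actr1a (0.09 to 0.11). For Tubb2c they were Pak1ip1, Rit1 and Wdr1 (0.10 to 0.11), and for Tubb6 the class II histocompatibility gene H2-Ab1, Epb4.1l4b and Kctd11 (0.15 to 0.19). Among the members themselves Tubb2a and Tubb2c were closest (0.28), then Tubb2b and Tubb5 (0.31), and Tubb4 and Tubb6 farthest apart (4.70). Tubb2a and Tubb2b, nearly the same in sequence, differed by 0.89. These distances mostly reflect differences between the 3 tissues and describe the libraries only.

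Alpha-tubulins are the partners of beta-tubulin in the dimer. Of 8 listed genes 6 passed the filter. Calls were 4 higher and 2 lower for paw against DRG, 3 higher and 2 lower for paw against spinal cord, and 3 higher and 2 lower for DRG against spinal cord. Over all tested genes 80.5%, 81.6% and 59.6% were called in either direction in these comparisons. Tuba1a, the main alpha-tubulin of developing and adult neurons, was at 56.9, 48.4 and 59.8 CPM in paw 1 to 3, at 984, 1164 and 1126 CPM in DRG 1 to 3, and at 330.4, 353 and 314 CPM in spinal cord 1 to 3. Like Tubb3 it was highest in DRG, with a log2 fold change of −4.31 ± 0.13 for paw against DRG (adjusted p = 6.65e-11). Tuba8 and Tuba1c were highest in paw. Tuba8 was at 142, 129 and 151 CPM in paw 1 to 3, at 5.76, 6.13 and 4.90 CPM in DRG 1 to 3, and at 8.50, 9.23 and 8.26 CPM in spinal cord 1 to 3. Tuba1c averaged 60.3 CPM in paw, 3.40 in DRG and 1.52 in spinal cord, and paw exceeded spinal cord at a log2 fold change of 5.31 ± 0.18 (adjusted p = 1.09e-10). Tuba1b was lower in paw than in DRG (−2.44 ± 0.13) and than in spinal cord (−1.73 ± 0.13). Tuba4a, whose protein lacks the final tyrosine that most alpha-tubulins encode, averaged 628 CPM in paw, 398 in DRG and 543 in spinal cord, and its paw and spinal cord libraries overlapped (0.21 ± 0.14, adjusted p = 0.178). Tubal3 had 41 reads over paw, 0 over DRG and 1 over spinal cord. Tuba3a had 1 read over paw and none elsewhere, and Tuba3b had 0 reads in all 9 libraries. Alpha-tubulin genes are also close copies of each other, and their reads were not checked for uniqueness.

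Newly made beta-tubulin is folded by a chaperonin and joined to alpha-tubulin by folding cofactors, and its tail is then modified by dedicated enzymes. Of 7 folding cofactors 0 were called higher and 6 lower in paw against DRG, where 39.7% of all tested genes were higher and 40.8% lower. In paw against spinal cord it was again 0 higher and 6 lower, where 39.9% and 41.7% of all tested genes were. In DRG against spinal cord 4 were higher and 2 lower, where 29.0% and 30.6% of all tested genes were. Tbcd, which takes up beta-tubulin and helps build the dimer, had mean CPM of 49.1 ± 1.33 in paw, 191 ± 12.6 in DRG and 78.5 ± 1.30 in spinal cord (SD, n = 3). It was lower in paw than in DRG (−1.96 ± 0.08, adjusted p = 9.85e-10) and higher in DRG than in spinal cord (1.29 ± 0.08, adjusted p = 1.21e-07). Arl2, the small GTPase that works with Tbcd, was lower in DRG than in spinal cord (−0.39 ± 0.11, adjusted p = 0.00789). Of 26 tail-modifying enzymes and partners, paw against DRG gave 5 higher and 18 lower calls, paw against spinal cord 4 higher and 21 lower, and DRG against spinal cord 6 higher and 9 lower. Their median log2 fold changes in these comparisons were −1.72, −1.84 and −0.03.

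Among these enzymes Ttl, the ligase that restores the final tyrosine of alpha-tubulin, was the gene called higher with the largest fold change in DRG against spinal cord. It averaged 28.7 CPM in paw, 479 in DRG and 86.2 in spinal cord, with a log2 fold change of −4.06 ± 0.10 in paw against DRG (adjusted p = 1.85e-11) and 2.48 ± 0.09 in DRG against spinal cord (adjusted p = 2.23e-09). Genes of the deglutamylase family, which shorten glutamate chains on the tails, went in both directions. Agbl1 averaged 17.8 CPM in paw, 0.155 in DRG and 0.0680 in spinal cord. Agbl5 was lower in DRG than in spinal cord (−1.43 ± 0.11, adjusted p = 7.39e-07). Agbl4 had 1 read over paw, 124 over DRG and 311 over spinal cord. Sirt2, a deacetylase that acts on alpha-tubulin among other proteins, had the highest CPM of the list as a mean over all 9 libraries, although Ttl was higher in DRG. Sirt2 averaged 99.8 CPM in paw, 339 in DRG and 335 in spinal cord, and it was not called between DRG and spinal cord (0.02 ± 0.09, adjusted p = 0.893).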

How the data were processed

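RNA of hind paw, DRG and spinal cord was sequenced as 50 bp single-end reads, with 3 libraries per tissue, from about 500 ng of total RNA after oligo-dT selection with a stranded kit, per the labels' protocols. The submitters' processing notes name bcl2fastq, TopHat2, HTSeq and mm9, with versions not given in the sources used here. The deposited values are raw counts of reads per gene, which the authors had not normalized. Whether counting used the strand is not given, so reads of overlapping and antisense genes may mix. Reads with several alignments, which the count files list apart and which stayed out of library sizes and tests, were 46.9 to 47.6% of all the reads and alignments listed in paw, 31.9 to 32.8% in DRG and 33.1 to 35.5% in spinal cord.

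Counts of all 9 libraries were fitted together with edgeR 4.0.16 (R 4.3.3; TMM factors, filterByExpr, quasi-likelihood test), with Benjamini-Hochberg adjustment over 16091 genes. Ratios of members were compared with two-sided exact permutation tests in SciPy 1.17.1, and coding sequences were aligned with MAFFT 7.526. The fit was tested on simulated data. No library pair agreed within sampling noise. Alternatives were other scalings, no filter, DESeq2 1.42.0, limma-voom (limma 3.58.1), the compared tissues alone, a replicate block and leaving out libraries. Adding Tubb2a-ps2 reads to Tubb2a, and setting Tubb3 and Tubb4 beside each neuron marker alone, were chosen after seeing the data.

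The members and all gene lists were chosen with earlier results of these data known. Named genes are the 8 members, all listed alpha-tubulins, in each other list and comparison the largest call in each direction and the most expressed gene, the 3 genes of most like pattern for each tested member, and listed markers where they moved with a result. Of 70 listed tubulin pathway genes 4 were found under older symbols.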

Additional observations from a re-analysis of the deposited data

How the results depend on the processing

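The log2 fold changes of the 7 tested members in 3 comparisons gave 21 values, each recomputed under 20 alternatives. Of the 420 recomputed values 414 kept direction and side of the threshold, 0 reversed, and 18 of the 21 did so under all 20. The exceptions, given with their values above, are Tubb2a and Tubb2c in paw against spinal cord, for which the cause was not tested, and Tubb4 in DRG against spinal cord, in a fit with fewer libraries. Their log2 ranges were −0.56 to −0.27, 0.13 to 0.31 and −1.04 to −0.77. Upper quartile scaling moved the median of all genes in paw against DRG by 0.123, and no scaling factor by 0.115. No pairing by replicate number was seen between tissues. Same-numbered libraries correlated in their deviations from the tissue mean at −0.13 to 0.271, with 2 of 9 over 0.1. Libraries of other numbers correlated at −0.447 to 0.341, with 4 of 18 over 0.1. This does not exclude that same-numbered libraries share a mouse, since libraries of 1 mouse need not deviate alike in different tissues. With the replicate block 7 members were called in paw against DRG, 6 in paw against spinal cord and 7 in DRG against spinal cord, as without it. Depth limits Tubb1, which had 0 to 4 reads in 8 of 9 libraries.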

Other observations

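Of 12 genes of gamma-tubulin, its relatives and the ring complex that starts microtubules, 1 was called higher and 6 lower in paw against DRG, 1 higher and 6 lower in paw against spinal cord, and 1 higher and 3 lower in DRG against spinal cord. Over all tested genes 39.7% were higher and 40.8% lower in paw against DRG, and 39.9% and 41.7% in paw against spinal cord. In DRG against spinal cord 29.0% of all tested genes were higher and 30.6% lower. Tubg2, a gamma-tubulin gene, averaged 1.67 CPM in paw, 34.7 in DRG and 51.6 in spinal cord. Nedd1, which anchors the ring complex, had its paw level above DRG (log2 fold change 1.77 ± 0.14, ± SE, adjusted p = 2.49e-07). Tubgcp4, a ring complex subunit, had its DRG level above spinal cord (1.26 ± 0.15, adjusted p = 2.38e-05). Mzt1, a small subunit and the most expressed of the list, was lower in DRG than in spinal cord (−0.53 ± 0.10, adjusted p = 0.0011).

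Of 15 genes of the chaperonin that folds tubulin and of prefoldin, which hands it over, 3 were called higher and 8 lower in paw against DRG, 3 higher and 5 lower in paw against spinal cord, and 5 higher and 2 lower in DRG against spinal cord. In the same 3 comparisons 80.5%, 81.6% and 59.6% of all tested genes were called in either direction. Whether this short list differs from those shares was not tested. Tcp1, the most expressed chaperonin subunit, averaged 264 CPM in paw, 265 in DRG and 252 in spinal cord, and was called in no comparison. For Pfdn5 paw exceeded DRG (0.81 ± 0.10, adjusted p = 1.04e-05). For Pfdn1 paw exceeded spinal cord (0.42 ± 0.12, adjusted p = 0.00602), and Pfdn2 was lower there (−1.12 ± 0.13, adjusted p = 9.18e-06). For Cct6b DRG exceeded spinal cord (2.42 ± 0.45, adjusted p = 0.000704) at a mean of 1.04 CPM in DRG and 0.189 in spinal cord.

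Of the 2 listed genes of tubulin mRNA autoregulation, Ttc5, which recognises newly made tubulin, averaged 34.0 CPM in paw, 28.2 in DRG and 26.1 in spinal cord. Ttc5 was called higher in paw than in DRG (0.27 ± 0.11, adjusted p = 0.0338) and than in spinal cord (0.38 ± 0.11, adjusted p = 0.00565). Its adaptor Scaper was called lower in paw than in DRG (−0.41 ± 0.13, adjusted p = 0.0101) and higher in DRG than in spinal cord (0.57 ± 0.13, adjusted p = 0.00222).

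Over all 70 listed tubulin pathway genes, 68 of them tested, 14 were called higher and 41 lower in paw against DRG, 12 higher and 40 lower in paw against spinal cord, and 20 higher and 18 lower in DRG against spinal cord. Over all tested genes 80.5% were called in either direction in paw against DRG, 81.6% in paw against spinal cord and 59.6% in DRG against spinal cord. Reads counted to the pseudogene Tubb2a-ps2 averaged 8.91 CPM in paw, 72.4 in DRG and 26.7 in spinal cord, the tissue order of Tubb2a, Tubb2b, Tubb3 and Tubb5. Per 100 Tubb2b reads they numbered 58.9 to 76.4 in paw, 42.0 to 47.3 in DRG and 60.2 to 66.0 in spinal cord. Per 100 Tubb2a reads they numbered 5.69 to 6.28 in paw, 17.5 to 19.6 in DRG and 12.9 to 14.4 in spinal cord.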
